A study of Mus musculus with 7 samples.

Results

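The histone cluster genes of the mouse were followed through fetal and perinatal ovary development in 7 single-cell libraries. The members were all genes whose symbol in the deposited gene table begins with Hist1h, Hist2h, Hist3h or Hist4h, which gave 67 of 31053 genes. They comprise 6 linker histone H1 genes, 18 H2A, 18 H2B, 12 H3 and 13 H4 genes, with 54 on chromosome 13, 10 on chromosome 3, 2 on chromosome 11 and 1 on chromosome 6. A unique molecular identifier (UMI), which marks 1 captured RNA molecule, was found for 66 of them, and Hist1h2bq had none. The members held 421724 of 492138529 UMIs in the cells kept, or 0.0857%.

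Gonads or ovaries came from untreated wild type C57BL/6J mice at 5 embryonic days from E11.5 to E18.5 (with E12.5, E14.5 and E16.5 between) and at P1 and P5 after birth. Each age was 1 library made from several gonads, so age and library cannot be told apart, and no age was tested against another. Trypsin dissociation lasted 20 min at E11.5 and E12.5, 40 min at E14.5 and E16.5, 60 min at E18.5 and 80 min at P1 and P5. The files held 52542 barcodes called as cells, and the 50823 in which 200 or more genes were found were used.

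The cells were compared as 3 classes in every library. Germ cells had at least 3 UMIs of Dazl, Ddx4 and Pou5f1 together (4871 cells). Cycling somatic cells had none of these and at least 2 UMIs of the proliferation marker Mki67 (4971 cells), and non-cycling somatic cells had none of either (33321 cells). Levels are given as CPM, the UMIs of a gene per 1000000 UMIs of all genes in a class. In germ cells 6 other germ cell markers summed to between 1904 and 3529 CPM, against at most 36.6 in cycling and 70.0 in non-cycling somatic cells. The division genes Top2a, Cdk1 and Ccnb1 summed to between 760 and 1563 CPM in cycling cells and between 36.7 and 401 in non-cycling cells, the highest being E11.5. Markers of somatic and blood cells summed to between 224 and 5516 CPM in germ cells. At least 10 UMIs of those markers were found in between 13.2% (E11.5) and 98.4% (P1 and P5) of germ cells. Cells with over 1% of their UMIs in haemoglobin genes made up between 3.64% (E12.5) and 63.8% (P1) of cycling somatic cells. The labels call the earliest tissue a gonad, and 28.4% of E11.5 cells and 7.10% of E12.5 cells held a UMI of a Y-linked gene, against at most 0.158% in the other libraries. Of 51564 distinct barcodes, 962 occurred in more than 1 library.

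Core histones form the nucleosome around which DNA is wrapped, and H1 binds the linker between nucleosomes. Most of these genes are replication-dependent. They are transcribed in S phase, and their mRNAs end just after a stem-loop that is bound by the stem-loop binding protein SLBP, in place of a poly(A) tail. Replacement variants such as H3.3 are polyadenylated and made throughout the cell cycle. Some members are germline histones, namely Hist1h1t (H1t), Hist1h2aa (TH2A) and Hist1h2ba (TH2B), known best from the testis. The 10x method primes complementary DNA with oligo-dT, so the UMIs here count polyadenylated histone RNA or RNA primed at internal A-rich stretches, and a level is not the amount of all histone mRNA.

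The stem-loop sites of 8 members are shown because they mark where the tail-less mRNA ends. The members are also grouped below by the length of annotated transcript after them. They were read 5′ to 3′ from GENCODE release M21 transcripts (GRCm38), and capitals mark the stem and loop.
Hist1h2ap: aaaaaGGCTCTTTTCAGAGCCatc
Hist1h4i: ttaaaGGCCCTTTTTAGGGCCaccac
Hist1h1e: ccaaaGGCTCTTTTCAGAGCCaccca
Hist1h1c: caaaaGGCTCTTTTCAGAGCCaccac
Hist3h2a: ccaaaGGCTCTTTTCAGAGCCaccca
Hist3h2ba: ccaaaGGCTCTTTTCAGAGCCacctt
Hist4h4: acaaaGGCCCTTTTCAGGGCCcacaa
Hist1h1t: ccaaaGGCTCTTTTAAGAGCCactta

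Such a site was found in 46 of 67 members. Past it, the annotated transcript of Hist1h2ap ran on for 3 bases, that of Hist3h2ba for 169, Hist1h1t 185, Hist1h4i 330, Hist1h1c 840, Hist1h1e 1153, Hist3h2a 1643 and Hist4h4 2445 bases. The Hist3h2a and Hist1h1e windows are the same letters, so the site itself did not separate a member that was high outside S phase from one that was not.

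Summed over the 67 members, cycling somatic cells had the highest level in all 7 libraries. From E11.5 to P5 it was 808, 3282, 661, 4750, 2191, 3210 and 2674 CPM. In non-cycling somatic cells it was 476, 619, 302, 325, 428, 268 and 231. The ratio of the 2 classes was 1.70 (95% interval 1.66 to 1.73, counting error only) at E11.5 and 14.6 (14.4 to 14.9) at E16.5, with 5.30, 2.19, 5.12, 11.98 and 11.6 in the other 5 libraries in order of age. Non-cycling cells of E11.5 had 401 CPM of Top2a, Cdk1 and Ccnb1, against at most 73.6 in those of the other libraries. By these markers that class still held dividing cells, which limits every E11.5 comparison with it.

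Germ cells lay between the somatic classes in 6 libraries and below both at P1. Their level was 530, 1481, 340, 1460, 449, 213 and 491 CPM from E11.5 to P5. Relative to non-cycling somatic cells this was 4.50-fold (4.42 to 4.57) at E16.5 and 0.796-fold (0.749 to 0.845) at P1. Relative to cycling somatic cells it ranged from 0.656-fold at E11.5 to 0.0664-fold at P1.

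One gene carried much of the sum in some libraries. Hist1h2ap, an H2A gene with 20.8% of all member UMIs, made up 64.8% of the germ sum at E12.5 and 66.6% of the cycling sum at E18.5, but 0.964% and 0.0656% of the same sums at E14.5. Without it, the ratio of cycling to non-cycling cells was 1.501, 2.997, 2.19, 13.9, 2.39, 10.3 and 9.12 from E11.5 to P5, and germ cells at E12.5 were 1.12-fold (1.08 to 1.16) above non-cycling cells in place of 2.39-fold. Germ cells of E18.5 were then below non-cycling cells (0.931-fold, 0.879 to 0.985, in place of 1.05-fold), so that germ cells were below both somatic classes in 2 libraries, and at E11.5 they did not differ from non-cycling cells beyond counting error (1.014-fold, 0.901 to 1.14).

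**Figure D1:**
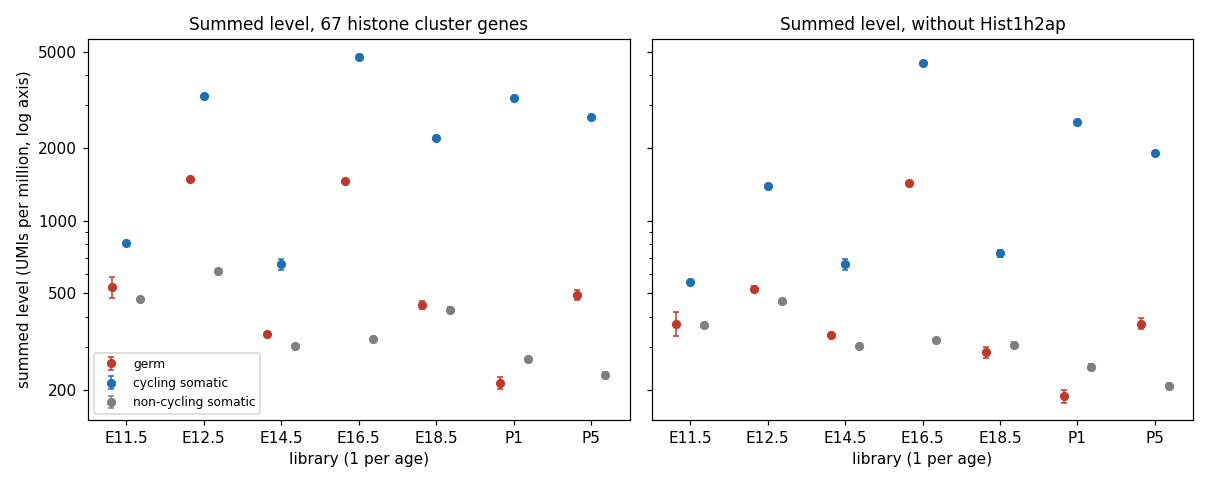
Summed level of the histone cluster genes (CPM, log axis) in germ, cycling somatic and non-cycling somatic cells of each library, with Hist1h2ap (left) and without it (right). Points are 1 library each and bars are 95% exact Poisson intervals. Cycling cells are highest in all 7 libraries in both panels, and the germ point at E12.5 drops from 1481 to 521 on leaving out Hist1h2ap.

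Across the somatic cells, the members as a group were higher in cycling cells. In edgeR's quasi-likelihood test on UMIs summed per library and class (7 libraries, library as a block, Benjamini-Hochberg adjustment over all genes), 61 members had enough UMIs to be tested, 56 were higher in cycling cells at an adjusted p under 0.05, and 0 were lower. Of all 16130 genes tested, 15.6% were higher and 18.3% lower. The median log2 fold change was 2.78 for the tested members and -0.09 for all genes. By histone, the counts that rose were 5 of 6 H1, 13 of 14 H2A, 15 of 16 H2B, 10 of 12 H3 and 13 of 13 H4 genes tested.

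The 5 tested members that did not pass were Hist3h2a, Hist3h2ba, Hist1h1t, Hist2h3c1 and Hist2h3c2. Folds among those that did ran from 0.99 for Hist2h2be to 4.64 for Hist1h2af on the log2 scale.

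Mki67 is low early in S phase, so the somatic cells were also split with lists of 42 S-phase and 51 G2/M genes that hold no member. S-like cells were high for the first list only (3516 cells), and quiet cells lacked Mki67 and were at or under the median for both lists (13524 cells). The E11.5 library gave 2022 of the S-like cells but only 209 of the quiet cells. Of 51 members tested, 45 were higher in S-like cells and 1, Hist3h2a, was lower, against 17.6% higher and 18.6% lower of all 14675 genes. The median log2 fold change was 2.55 for members and -0.08 for all genes.

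The summed level of S-like over quiet cells was 2.24, 4.76, 1.57, 9.29, 8.26, 9.63 and 3.10 from E11.5 to P5. Without Hist1h2ap it was 1.5003, 2.22, 1.56, 8.87, 2.39, 7.48 and 1.89, so the excess over 1 at E11.5, E12.5, E18.5 and P5 rested largely on that gene. G2/M-like cells were high for the G2/M list whatever their S-phase list, so cells high for both lists were counted there. Comparing them with S-like cells therefore does not separate G2/M from S phase. Their summed level was above that of S-like cells in 6 libraries, by 1.08-fold (1.06 to 1.11) at E11.5 to 4.67-fold (4.44 to 4.92) at P5. It was lower only at E18.5 (0.673-fold, 0.646 to 0.701). At P5, S-like cells had 386 CPM and quiet cells 204 without Hist1h2ap. Without Hist1h2ap the E18.5 ratio was 0.988 (0.919 to 1.06).

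The most abundant members followed this pattern. Hist1h2ap (chr13:21833026-21833507, minus strand) had 252, 1885, 0.434, 278, 1459, 656 and 776 CPM in cycling somatic cells from E11.5 to P5. In non-cycling cells it had 106, 153, 0.217, 4.08, 121, 19.7 and 23.1. It was higher in cycling cells in 7 of 7 libraries (log2 fold change 4.31 ± 0.62 SE, adjusted p = 0.0012) and in S-like over quiet cells likewise (5.28 ± 0.36, adjusted p = 2.61e-06). The E14.5 values stood far below the rest in both classes. They rest on 1 UMI in cycling and 8 in non-cycling cells, too few to order the classes in that library.

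Hist1h1b, the linker histone H1.5 (chr13:21779883-21780625, minus strand), had 42.6, 229, 31.7, 1178, 37.4, 210 and 133 CPM in cycling cells and 17.3, 33.3, 4.84, 40.5, 5.62, 7.69 and 5.69 in non-cycling cells. Its highest value was at E16.5. It was higher in cycling cells in 7 of 7 libraries, though the ranges of the classes over the libraries overlapped. The log2 fold change was 3.63 ± 0.49 SE (adjusted p = 0.00091), and 3.84 ± 0.43 for S-like over quiet (adjusted p = 0.000119).

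Hist1h2ae, an H2A gene, was higher in cycling cells by 3.57 ± 0.61 on the log2 scale (adjusted p = 0.00256), with 28.2 CPM at E14.5 and 502 at E16.5. Hist1h1e, the linker histone H1.4, was higher by 2.98 ± 0.35 (adjusted p = 0.000476). Hist1h1a, H1.1, was higher by 3.83 ± 0.62 and, for S-like over quiet, by 4.57 ± 0.45. The H4 genes Hist1h4i (2.60 ± 0.35) and Hist1h4d (2.74 ± 0.37) were higher in 7 of 7 libraries. Shared sequence limits these identities. Of the 50-base words of Hist1h2ap, 93.1% occur in its near-identical copy Hist1h2ao. The last 150 bases of Hist1h1e lie in sequence shared with Hist1h2be, an H2B gene whose annotation overlaps its own on the same strand. Hist1h1a and Hist1h1b share no 50-base word with another gene.

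**Figure D2:**
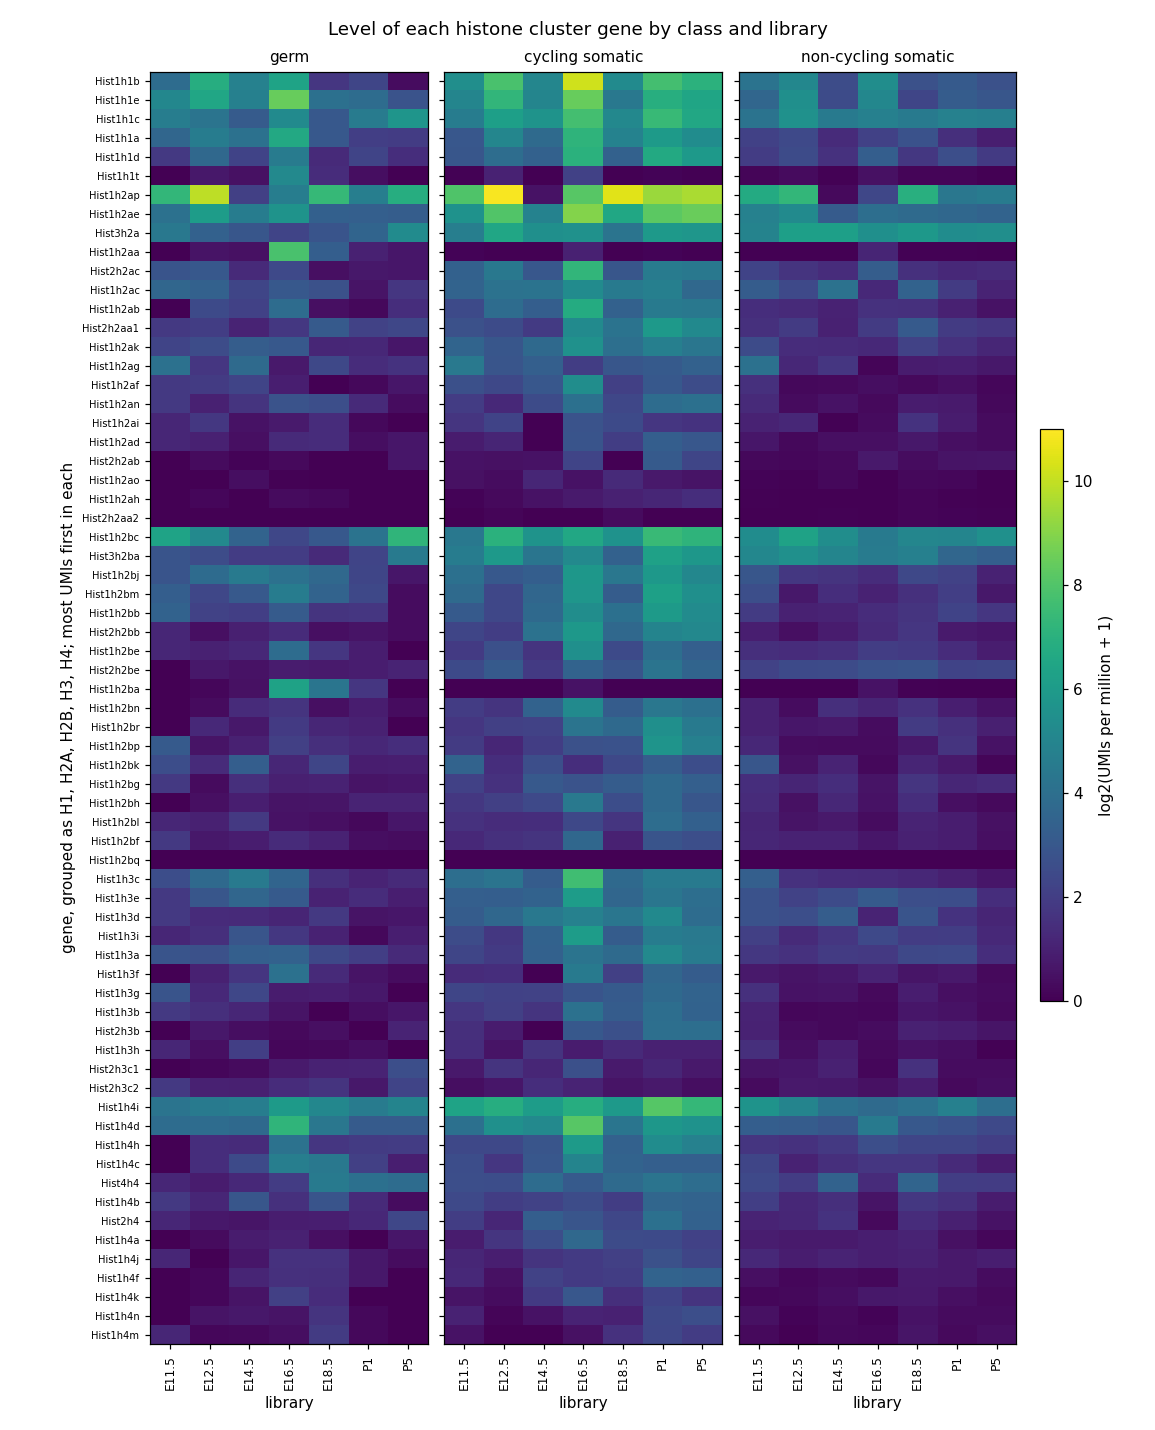
Level of each of the 67 members (rows, grouped as H1, H2A, H2B, H3 and H4) in each library (columns) for the 3 classes, coloured by log2(CPM + 1). Most rows are brightest in cycling somatic cells, Hist1h2ap is dark at E14.5, and Hist1h2aa, Hist1h2ba and Hist1h1t are brightest in germ cells at E16.5.

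Few members kept their level outside S phase. The mean level over 7 libraries in quiet cells was divided by that in S-like cells, and a member was counted as kept at a ratio of 0.5 or more with at least 10 UMIs in quiet cells. Of 62 members with those UMIs, 9 were kept, against 91.6% of 18366 genes. The median ratio was 0.189 for members and 1.15 for all genes. Above 1 were 3 members, Hist3h2a (2.38), Hist3h2ba (1.997) and Hist1h2bc (1.42). Below them were Hist2h3c2 (0.926), Hist2h3c1 (0.885), Hist2h2be (0.876), Hist1h1c (0.688), Hist4h4 (0.578) and Hist1h2ba (0.536). The last rests on 10 UMIs and was lost under several other settings. Just outside were Hist1h4j (0.487), Hist1h3h (0.485) and Hist1h2aa (0.482).

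Hist3h2a (chr11:58954685-58956830, plus strand), an H2A gene of the small cluster Hist3, was the one member called lower in S-like cells. In quiet cells it had 51.1, 78.8, 81.7, 47.0, 62.3, 42.2 and 45.4 CPM from E11.5 to P5. In S-like cells it had 17.7, 50.9, 20.3, 22.9, 13.8, 24.8 and 21.5. S-like cells were lower in 7 of 7 libraries (log2 fold change -1.20 ± 0.19 SE, adjusted p = 0.00101). Between cycling and non-cycling cells it did not differ beyond the spread (0.05 ± 0.26, adjusted p = 0.892), and the sign of that value turned under 6 other settings.

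Its neighbour Hist3h2ba (chr11:58948920-58949533, plus strand), an H2B gene, had 52.8, 48.0, 39.7, 26.3, 31.7, 13.2 and 10.6 CPM in quiet cells and 20.9, 34.0, 7.77, 11.9, 7.09, 22.3 and 7.30 in S-like cells. S-like cells were lower in 6 of 7 libraries, P1 being the exception, and the fold missed the threshold (-0.92 ± 0.34, adjusted p = 0.06). It passed without P1 (-1.29), and with haemoglobin-rich cells left out (-1.38), an alternative chosen after seeing the data.

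Hist1h2bc (chr13:23684199-23692908, plus strand), an H2B gene with a spliced annotated transcript and no stem-loop found in it, had between 21.4 and 85.3 CPM in quiet cells. In S-like cells it had between 13.8 and 62.1. S-like cells were lower at E11.5, E12.5, E14.5 and P5 and higher at E16.5, E18.5 and P1 (-0.43 ± 0.40, adjusted p = 0.433). In cycling over non-cycling cells it passed narrowly (1.21 ± 0.42, adjusted p = 0.0482) and lost the call under 11 of the other settings. Of the 50-base words of Hist3h2a, 31.5% occur in Trim17, and of those of Hist3h2ba, 22.1% in Hist3h2bb-ps. For Hist1h2bc, 30.1% occur in other genes. In the last 150 bases the shares for these 3 members were 0%, 0% and 7.92%.

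Hist1h1c, the linker histone H1.2, was higher in cycling cells (1.70 ± 0.36, adjusted p = 0.00693) but did not pass between S-like and quiet cells (0.38 ± 0.48, adjusted p = 0.571). Hist2h2be had 0.99 ± 0.35 (adjusted p = 0.0492) in the first comparison, lost under 12 other settings, and 0.07 ± 0.48 (adjusted p = 0.925) in the second. Hist4h4, the single member of the fourth cluster, passed both (1.502 ± 0.38, adjusted p = 0.0141, and 1.06 ± 0.33, adjusted p = 0.0288), with 0.578 of its S-like level in quiet cells, and was no longer counted as kept at the 90th percentile of the lists or with suspected doublets left out. Hist2h3c1 and Hist2h3c2 had at most 2.11 CPM in quiet cells of any library. Of their 50-base words, 100% and 63.5% occur in Gm20634, which limits their identity.

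The members were then grouped by annotated transcript end. Of the 23 whose transcript ends within 100 bases of the stem-loop, 21 had 10 UMIs in quiet cells and 0 were kept outside S phase, with a median quiet over S-like ratio of 0.139 (range 0.0295 to 0.448). Of the 23 whose transcript runs 100 or more bases past it, 6 were kept, with a median of 0.262 (0.0611 to 2.38). Of the 21 with no stem-loop found, 18 had the UMIs and 3 were kept (median 0.181). This last group is mixed, from annotated transcripts of 312 bases (Hist1h4k) and 381 bases (Hist1h2bn) to 2620 bases (Hist2h2be). A stem-loop past a short annotated end could not be found, so the group need not lack one. The first group still gave 32.9% of all member UMIs, but Hist1h2ap, which is in it, alone gave 20.8% of all member UMIs. These are descriptions of annotated transcripts, since the ends of the RNAs counted were not measured.

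**Figure D3:**
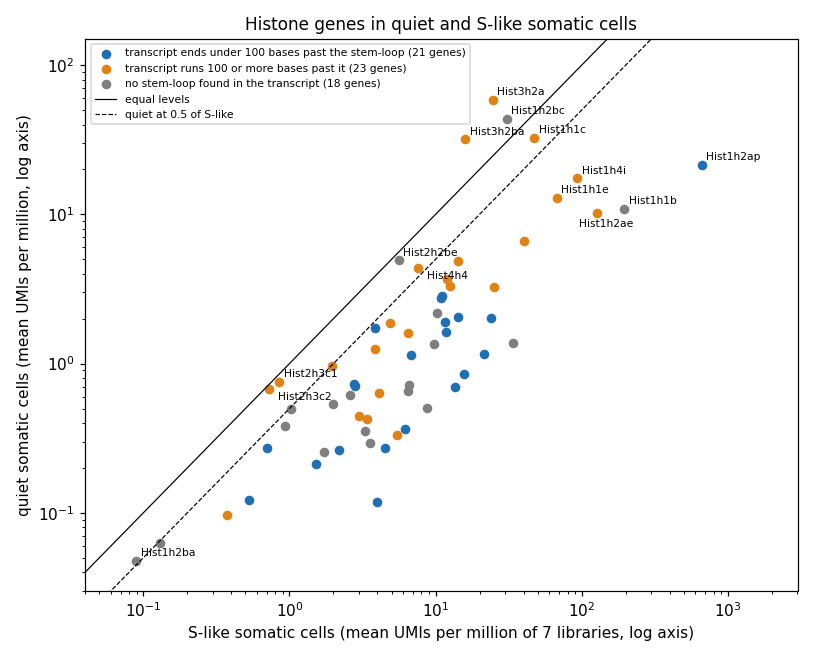
Mean level over 7 libraries in quiet somatic cells (vertical axis) against S-like somatic cells (horizontal axis), in CPM on log axes, for the 62 members with 10 UMIs in quiet cells, coloured by annotated transcript end. The solid line marks equal levels and the dashed line 0.5 of the S-like level, and Hist3h2a, Hist3h2ba and Hist1h2bc lie above the solid line.

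Germ cells were split at 5 UMIs per 10000 of Stra8, which is switched on at meiotic entry, and of Sycp3, which encodes a protein of the synaptonemal complex, and at E14.5 the summed level differed little between these classes. At E14.5, Stra8-low Sycp3-low, Stra8-high Sycp3-low and Stra8-high Sycp3-high cells had 336, 342 and 341 CPM. The second over the first was 1.02 (0.974 to 1.06) and the third over the second 0.997 (0.955 to 1.04), both within counting error. The make-up of the sum did differ in the third class. H1 genes gave 21.9%, 21.9% and 30.8% of member UMIs in the 3 classes. H2B genes gave 22.0%, 21.1% and 15.1%, and H3 genes 18.1%, 20.1% and 15.3%.

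The summed level did move with the S-phase list inside these classes. The limit was the one set in somatic cells, and most germ cells split here lay above it (244 of 331 at E12.5). Being above it thus does not place a germ cell in S phase. Stra8-high E14.5 cells above the S-phase limit (1379 cells) had 382 CPM and those under it (617 cells) 260, a ratio of 1.47 (1.40 to 1.54). In Stra8-low Sycp3-low cells the ratio was 1.55 (1.45 to 1.67) at E14.5 and 2.94 (2.77 to 3.12) at E12.5. The E12.5 ratio was 2.17 (1.99 to 2.38) without Hist1h2ap. In the Stra8-high E14.5 cells, H1 genes gave 29.9% of member UMIs above the limit and 11.3% under it. H2B genes gave 16.8% and 24.8%, and H3 genes 15.8% and 25.6%. The higher sum in those cells thus rested largely on H1 genes and was not shared evenly by the histones.

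Of 58 members with 10 UMIs in the Stra8-high cells, 13 had an interval above 1 for S-high over S-low and 6 had one below 1, against 16.4% of 14045 genes above 1 and 14.9% below. The counts of members are thus not far from those of all genes, and the values that follow describe single members. Hist1h1b (9.04, 6.52 to 12.9), Hist1h1e (4.95, 3.88 to 6.42) and Hist1h1a (2.53, 1.96 to 3.31) were among the former. Hist3h2ba (0.267, 0.147 to 0.472), Hist3h2a (0.641, 0.457 to 0.902) and Hist1h2bc (0.697, 0.524 to 0.932) were among the latter. Hist1h1c had 1.16 (0.846 to 1.61).

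Later in prophase the classes come from separate libraries. The Sycp3-high Stra8-low germ cells of E16.5 (914 cells) summed to 1444 CPM, those of E18.5 to 441, those of P1 (221 cells) to 196 and those of P5 (58 cells) to 495, against 1475 in Stra8-low Sycp3-low cells at E12.5 (331 cells). With a ratio of E16.5 to E12.5 of 0.5 or more and 10 UMIs at E16.5, 48 of 57 members were kept in meiosis. This is near the background of 87% of 15473 genes, and the median ratio was 1.77 for members and 1.97 for all genes. Hist1h2ap was not kept, at 22.9 CPM against 956. With suspected doublets left out, 28 of the 31 members with 10 UMIs were kept (87.3% of all genes), and with E18.5 in place of E16.5 24 of 32 (90.2%).

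H1 genes gave 42.6% of member UMIs in the E16.5 class and 17.5% in the E12.5 class, and H2A genes 24.2% and 72.7%, but these shares rest on Hist1h2ap. Without it, H1 gave 43.3% at E16.5 and 49.7% at E12.5, and H2A 22.9% and 22.2%. The levels without it were 615 and 258 CPM for H1 and 326 and 115 CPM for H2A. In cycling somatic cells H1 moved between the same libraries as well, from 15.2% to 42.2% with Hist1h2ap and from 35.8% to 44.9% without it. Hist1h1e had 355 CPM in the E16.5 class and 89.8 in the E12.5 class. That E16.5 level equalled that of cycling somatic cells of the same library within counting error (ratio 1.03, 0.991 to 1.06) and was 10.7-fold (10.2 to 11.2) above non-cycling cells. Hist1h1a (98.8), Hist1h4d (145) and Hist1h4i (63.6) were above non-cycling and below cycling somatic cells of that library, at 0.692-fold, 0.521-fold and 0.562-fold of the latter. In cycling somatic cells the summed level was highest at E16.5 too, as was that of Hist1h1b. Without Hist1h2ap the sum went from 1397 CPM at E12.5 to 4472 at E16.5 in cycling cells. In non-cycling cells it went the other way, from 466 to 321. A germ cell rise from E12.5 to E16.5 is seen between separate libraries, where age and library cannot be told apart.

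Within E16.5, 3 of the 57 members were above both somatic classes by their counting intervals, against 42% of 15473 genes. They were the germline histones Hist1h2aa, Hist1h2ba and Hist1h1t. Hist1h2aa (chr13:23934462-23934851, plus strand) had 0, 0.516, 0.409, 228, 8.71, 0.984 and 0.581 CPM in germ cells from E11.5 to P5. E16.5 stood alone, followed by E18.5. In somatic cells it was at most 1.21, and that was at E16.5 as well. Sycp3-high E16.5 cells had 235, which was 194-fold (155 to 246) above non-cycling and 238-fold (144 to 426) above cycling somatic cells.

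Hist1h2ba (chr13:23933773-23934156, minus strand) had 0, 0.129, 0.409, 81.1, 18.2, 2.30 and 0 CPM in germ cells. Again E16.5 was highest and E18.5 next. Sycp3-high E16.5 cells had 83.4, or 179-fold (125 to 266) above non-cycling somatic cells. The last 150 bases of its transcript are shared with Hist1h2bj, which was not restricted to germ cells.

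Hist1h1t (chr13:23695814-23696725, plus strand) had 0, 0.645, 0.409, 35.7, 1.63, 0.328 and 0 CPM in germ cells. In cycling somatic cells of E16.5 it had 3.35, so Sycp3-high cells (36.6) were 10.9-fold (8.22 to 14.8) above these and 90.7-fold (61.5 to 140) above non-cycling cells. Counts of 0 allow up to 3 UMIs, which is 3.79 CPM in the 38 germ cells of E11.5 and 0.872 in the 62 of P5.

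Among the 914 Sycp3-high cells of E16.5, a Hist1h2aa UMI was found in 86.9%, a Hist1h2ba UMI in 72.1% and a Hist1h1t UMI in 48.9%. In non-cycling somatic cells of that library, which should lack them, the shares were 1.11%, 0.451% and 0.391%. Median depth was 26007.5 UMIs in the former and 10358.5 in the latter, and with each cell thinned to 2000 UMIs the germ shares were 33.7%, 14.8% and 6.99% and the somatic ones 0.0882%, 0.0558% and 0.0542%. Both Hist1h2aa and Hist1h2ba were found in 619 cells, Hist1h2aa alone in 175, Hist1h2ba alone in 40 and neither in 80. Hist1h2aa had 2.82 UMIs (2.68 to 2.97) for each of Hist1h2ba at E16.5 but 0.451 (0.304 to 0.658) at E18.5, so the order of the pair was reversed between these libraries.

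The GENCODE starts of Hist1h2ba and Hist1h2aa lie 305 bases apart and point away from each other, so the stretch between them lies upstream of both these starts. Most of it is shown in the RefSeq window of Hist1h2aa (H2ac1), 250 bases before to 50 after the start, at chr13:23934187-23934486 on the plus strand (GRCm38.p6). The GENCODE start of Hist1h2aa (23934462) falls after the RefSeq start, so part of the stretch is transcribed by the RefSeq annotation. The window does not reach the Hist1h2ba start (23934156). Capitals mark ATGCAAAT, CCAAT and TATAAA on either strand.
Hist1h2aa and Hist1h2ba: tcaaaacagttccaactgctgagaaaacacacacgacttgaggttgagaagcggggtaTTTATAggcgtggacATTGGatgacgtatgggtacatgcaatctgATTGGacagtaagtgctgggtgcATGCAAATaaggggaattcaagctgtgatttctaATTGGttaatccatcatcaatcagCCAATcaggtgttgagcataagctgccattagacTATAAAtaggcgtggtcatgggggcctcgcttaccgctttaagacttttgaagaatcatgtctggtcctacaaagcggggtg

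The window holds 1 ATGCAAAT, the octamer known from H2B promoters, 4 CCAAT and 2 TATAAA. RefSeq promoter windows were matched for 61 members. The octamer was found in 13 of them (21.3%) against 1.74% of 32851 promoters, CCAAT in 52 (85.2%) against 37.4%, and TATAAA in 35 (57.4%) against 13.6%. These are matches of letters, not measured binding.

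**Figure D4:**
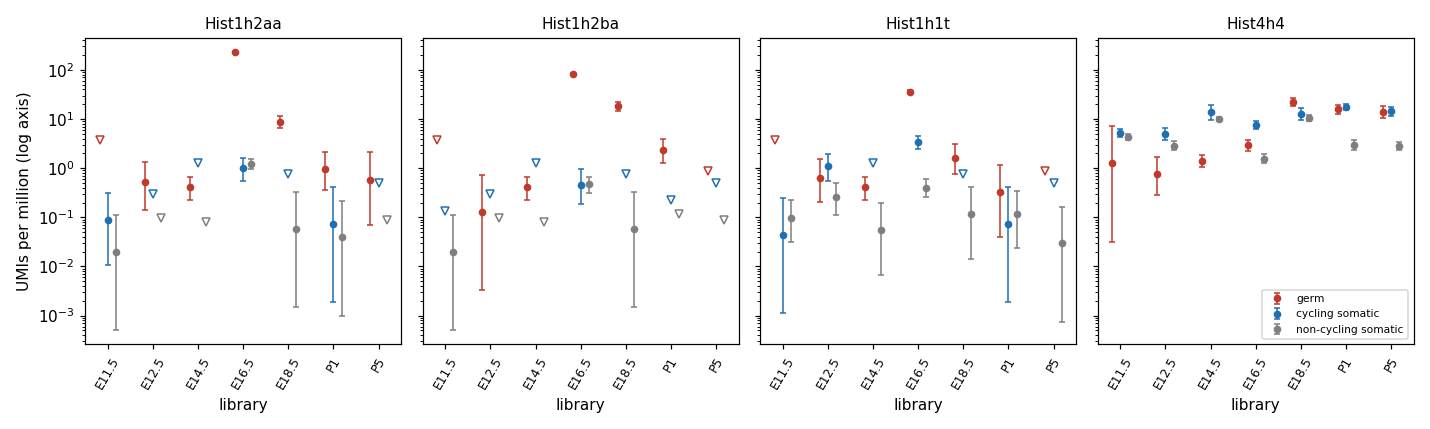
Levels (CPM, log axis) of Hist1h2aa, Hist1h2ba, Hist1h1t and Hist4h4 in germ, cycling somatic and non-cycling somatic cells by library. Bars are 95% exact Poisson intervals and open triangles mark the level of 3 UMIs where none was found. The first 3 genes peak in germ cells at E16.5 (228, 81.1 and 35.7), and Hist4h4 in germ cells is higher from E18.5 on.

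In Sycp3-high cells, Hist4h4 had 2.89 CPM in the E16.5 library, followed by 23.4, 15.96 and 13.9 in the later 3, against 0.786 in the E12.5 class. Over all germ cells, its ratio to cycling somatic cells was 1.73 (1.24 to 2.45) at E18.5 and within counting error of 1 at P1 (0.889, 0.694 to 1.13) and P5 (0.973, 0.668 to 1.40). With cells thinned to 2000 UMIs, it was found in 3.54% of germ and 3.66% of cycling cells at E18.5, so germ cells did not stand above cycling cells by that measure. Of 36 members with 10 UMIs in the Sycp3-high class of E18.5, P1 or P5, 25 had at least their E12.5 level there, against 82.1% of 13031 genes.

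Hist1h2bc fell and rose again across libraries, with 35.1 CPM in the E12.5 class and 3.44, 6.09, 17.6 and 146 in the Sycp3-high cells of E16.5, E18.5, P1 and P5. Hist3h2a followed the same order with 9.95, then 2.98, 5.10, 9.91 and 38.3, and Hist1h1c had 17.7, then 34.8, 7.26, 22.5 and 51.9. The P5 values rest on 58 cells. A Hist1h2bc UMI was found in 48.3% of them, and 1 cell held 106 of their 496 UMIs. Hist1h2bc had 142 CPM in cycling and 44.5 in non-cycling somatic cells of P5, where 98.4% of germ cells held 10 or more somatic or blood marker UMIs. The part of such RNA in these values was not tested.

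Hist1h1e had 355, 15.1, 13.6 and 6.19 CPM over the same 4 Sycp3-high classes and Hist1h1a 98.8, 6.68, 2.69 and 2.95, with the highest values of both at E16.5. Hist1h4c, an H4 gene, had 1.57 in the E12.5 class, 25.6 and 20.6 at E16.5 and E18.5, and 3.36 and 0.884 at P1 and P5. At E18.5 it was 2.001-fold (1.38 to 2.95) above cycling somatic cells. With cells thinned to 2000 UMIs, it was found there in 3.97% of Sycp3-high germ and 3.55% of cycling cells. By that measure germ cells stood little above cycling cells. Hist1h4i lay between 21.3 and 63.6 in these 5 classes.

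**Figure D5:**
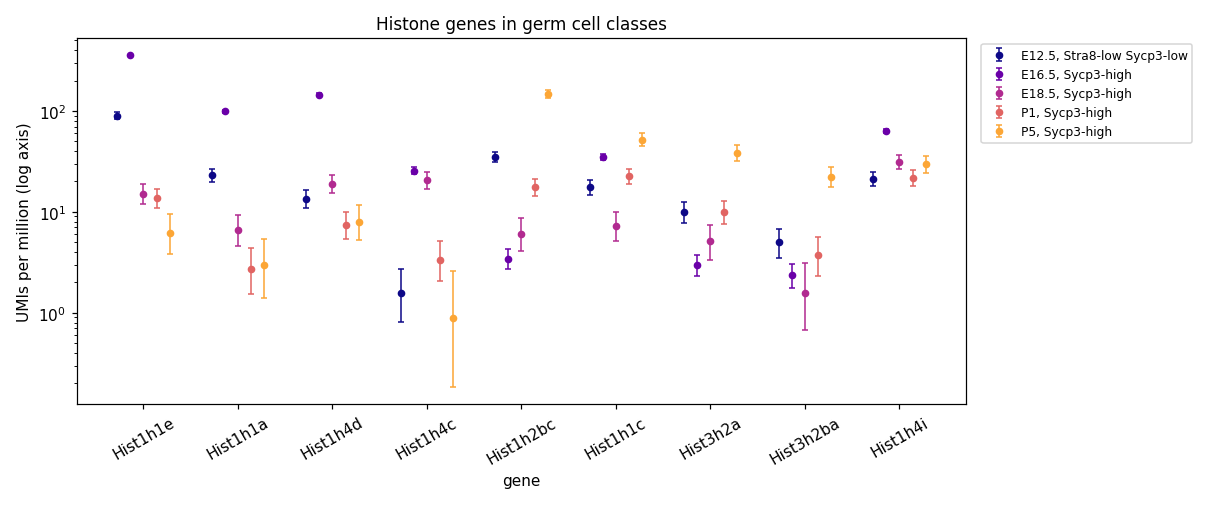
Levels (CPM, log axis) of 9 members in the Stra8-low Sycp3-low germ cells of E12.5 and the Sycp3-high Stra8-low germ cells of E16.5, E18.5, P1 and P5, with 95% exact Poisson intervals. Hist1h1e, Hist1h1a and Hist1h4d are highest at E16.5 (355, 98.8 and 145), while Hist1h2bc, Hist1h1c and Hist3h2a are highest at P5 (146, 51.9 and 38.3).

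Hist1h2ap was nearly missing from 1 library. At E14.5 it had 1 UMI of 2305996 in cycling somatic cells, 8 of 36945049 in non-cycling and 120 of 36635256 in germ cells. The next lowest library was 581-fold (104 to 22952) higher in cycling cells, 18.8-fold (9.42 to 44.1) in non-cycling cells and 7.38-fold (6.06 to 9.05) in germ cells. Among genes with at least 1 CPM in each of the other 6 libraries, E14.5 was 10-fold or more below all of them for 45 of 11014 genes in cycling cells, of which 3 were members (Hist1h2ai, Hist1h2ap and Hist1h3f). With 2305996 UMIs in the E14.5 cycling class, genes near 1 CPM elsewhere could meet this rule only with no UMI there. In germ cells the rule held for 1 of 9675 genes, which was not a member. In non-cycling cells it held for 2 of 11763 genes, Hist1h2ap and Pamr1. Not every S-phase member was so low there, as for Hist1h2ae (28.2 in E14.5 cycling cells against 47.1 at E11.5). Without Hist1h2ap the members summed to 660 CPM in E14.5 cycling cells. That sum was 556 at E11.5 and between 732 (E18.5) and 4472 (E16.5) in the remaining libraries.

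The machinery around these genes was taken from lists. Of 16 tested genes for histone mRNA processing and turnover, 10 were higher in cycling cells and 0 lower. Of 15 tested between S-like and quiet cells 11 were higher and 0 lower. Of all genes tested, 15.6% were higher in cycling and 17.6% in S-like cells. In both, 10 passed, namely Slbp, Casp8ap2, Lsm11, Eri1, Upf1, Cstf2, Cpsf2, Ncbp1, Srrt and Nelfe. Slbp, whose protein binds the stem-loop, was higher by 1.13 ± 0.30 and 2.17 ± 0.19 on the log2 scale (adjusted p = 0.0189 and 1.64e-05). Eri1, an exonuclease that trims the histone mRNA end, was higher by 1.31 ± 0.23 and 2.08 ± 0.15. Slbp and Casp8ap2 are also in the S-phase list that defined S-like cells, so their S-like results are not independent of that choice. The same holds for the chaperone and variant genes said below to be in such lists.

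Of 19 histone chaperone genes, 14 and 15 were higher and 0 lower. Asf1b, which hands H3 and H4 to assembly factors, was higher by 3.61 ± 0.47 and 4.78 ± 0.22 (adjusted p = 0.000759 and 1.75e-07), and Chaf1a, of the replication-coupled assembly complex CAF-1, by 1.75 ± 0.25 and 3.54 ± 0.14. Asf1a, Chaf1b, Hat1, Hira, Hjurp, Mcm2, Nap1l1, Nasp, Rbbp4, Ssrp1, Supt16 and Ubn1 also passed in both, 4 of these being in the S-phase or G2/M list.

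Of 11 replacement variant genes tested, 8 and 6 were higher and 0 lower. H2afz, the H2A.Z gene, had 2613 CPM in cycling and 1041 in non-cycling cells as means of 7 libraries (1.94 ± 0.25, adjusted p = 0.00069). H3f3a, an H3.3 gene, was higher by 0.63 ± 0.19 and 0.45 ± 0.12 (adjusted p = 0.029 and 0.0178), less than any member called higher in either comparison. Cenpa, H2afx, H2afv and H1fx passed both as well, and Cenpa is in the list used to define cells. H1fx, an H1 variant, had 40.6 CPM in the E12.5 germ class and 320 in that of E16.5.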

How the data were processed

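The deposited values were UMI counts per gene and cell, which the authors made from 10x v2 libraries (NextSeq 500) with Cell Ranger 3.1.0 and its mm10 reference. That pipeline counts reads that map to 1 gene, so near-identical histone copies can lose or exchange counts, and its annotation release may differ from GENCODE M21, used here for transcripts. Replicates were not pooled and none exist within an age. Cells with fewer than 200 genes were left out (1719), depth per library was 31960736 to 124390521 UMIs, and doublets were left out only as an alternative. Levels are 1000000 × summed UMIs over all UMIs of a class, with 95% exact Poisson intervals, and ratios have exact conditional intervals. PCR and ambient RNA are not covered, so these hold counting error only.

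S-like cells had the S-phase list above its 85th percentile over all somatic cells with at least 2000 UMIs and the G2/M list at or under its own, G2/M-like cells had the G2/M list above it, and germ classes needed 20 cells. The somatic comparisons used edgeR 4.0.16 (R 4.3.3), TMM scaling, genes with at least 100 UMIs over all columns and a library block. The fits call at an adjusted p under 0.05, were tested on simulated data, and give SE as the fold divided by the square root of F. The block pairs 2 classes from the same library. P-values weigh the difference between classes against how much it varies over 7 single libraries of different ages. Alternatives included DESeq2 1.42.0. Sequence sharing used 50-base words. Genes named were the 10 with most UMIs, the 8 with most UMIs among those kept outside S phase, kept in meiosis or high in later oocytes, those in the study's gene lists, the testis-type members and Hist4h4; Hist1h2af and members at limits were named after their values were seen, and list genes where they passed in both comparisons. Members and lists were chosen with earlier results of these data known.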

Additional observations from a re-analysis of the deposited data

Results flagged for a closer look

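Of the members named, 3 moved in opposite directions between libraries under the same contrast, cycling over non-cycling somatic cells, by counting intervals on opposite sides of 1. The difference between libraries was not tested, since each age is 1 library. Hist1h2bc was 5.76-fold (5.31 to 6.25) at P1 and 0.513-fold (0.463 to 0.568) at E11.5, with 5 libraries above 1 and 1 below. Hist3h2a was 1.49-fold (1.36 to 1.64) at P1 and 0.308-fold (0.238 to 0.392) at E18.5, with 3 libraries above and 3 below. Hist3h2ba was 6.68-fold (5.86 to 7.63) at P1 and 0.361-fold (0.252 to 0.503) at E18.5, with 4 above and 3 below. All 3 genes were above 1 at E12.5 as well, and Hist3h2a and Hist3h2ba were below 1 at E14.5. From E11.5 to P5, 11.7%, 3.64%, 21.8%, 35.0%, 16.7%, 63.8% and 22.7% of cycling cells had over 1% of their UMIs in haemoglobin genes. A link between these shares and the direction of the 3 genes was not tested. With such haemoglobin-rich cells left out, an alternative chosen after seeing the data, the log2 fold over all libraries was -0.21 for Hist3h2a and -0.27 for Hist3h2ba.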

How the results depend on the processing

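Without the library block (classes unpaired across libraries), the cycling comparison called 1583 genes in place of 5468 and S-like against quiet 2926 in place of 5305, and Hist1h2ap and Hist4h4 lost their calls in the first (log2 3.87 and 1.42). Leaving out 1 library at a time gave 3475 to 5526 and 3905 to 5211, the lowest of the first without E16.5. The members higher in S-like or cycling cells stayed between 34 and 57 under every alternative run. The members lower in S-like cells were 2 in place of 1 with DESeq2, no filter on low counts, somatic cells with fewer than 3 germ marker UMIs, doublets out or haemoglobin-rich cells out, and 1 to 2 on leaving out libraries, Hist3h2ba being the second. At a ratio of 0.25, 26 members were kept outside S phase, and leaving out libraries gave 8 to 12. Kept in meiosis fell to 28 with doublets out, which left 245 of 914 E16.5 cells and 31 members with 10 UMIs in place of 57, and to 24 of 32 with E18.5.

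Signs turned only for values that had not passed. Hist3h2a in the cycling comparison was -0.061 with Top2a, -0.21 without haemoglobin-rich cells, -0.020 with no filter, and -0.14 to 0.26 on leaving out libraries, below 0 without P1, P5 or E16.5. Hist3h2ba was -0.27 there without haemoglobin-rich cells. In the S-like comparison, Hist1h1c was -0.059 to 0.70 on leaving out libraries, the lowest without P1. Hist2h2be was -0.032 with DESeq2, -0.53 without haemoglobin-rich cells, -0.049 with the looser germ limit, and -0.42 (without P1) to 0.34 on leaving out libraries. Of the results that answer a comparison, 130 stayed within 1.5 times or the spread and 12 moved. Of the levels, which were labelled apart from these, 115 stayed and 75 moved. Hist1h4c and Hist4h4 lost their S-like calls under 8 and 6 alternatives. The alternatives on haemoglobin, on Hist1h2ap and on leaving out E14.5 with E16.5 were chosen after seeing the data.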
